A study of Mus musculus with 2 samples.

Results

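The genes described here are 9 mouse homeobox genes of the TALE class, namely Meis1, Meis2, Meis3, Pknox1, Pbx2, Pbx3, Pbx4, Irx3 and Irx5. They were taken by symbol from the authors' deposited table of distal against proximal regions, and all 9 were among its 13916 protein-coding genes. The regions came from limb-mesenchymal organoids, which are aggregates of embryonic limb mesenchymal cells of the Slc:ICR mouse strain grown for 48 h in medium with Fgf8b and Wnt3a and frozen at day 2. Both groups shared this strain, medium and time, and they differed in the part of the section that was lit, distal or proximal. Photo-isolation chemistry releases cDNA only where ultraviolet light removes a cage from the primers, so each library holds RNA of the lit areas. The labels give 5 organoids from 4 cultures, with 5 barcoded distal regions in 1 library and 5 barcoded proximal regions in another. They do not say which region came from which organoid. The side and the library are the same split and cannot be told apart. P-values over regions that share a library leave out variation between libraries and can be too small. Regions that share an organoid are not independent either, and without the pairing the effect of this on the p-values is not known.

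TALE stands for 3-amino-acid loop extension, an insertion between the first and second helices of the homeodomain. Pbx proteins bind DNA together with Hox proteins and with Meis or Pknox proteins, and Meis and Pknox proteins compete for the same partner surface of Pbx. In the limb bud Meis1 and Meis2 mark the proximal domain, where retinoic acid favours them and distal FGF signals restrict them. Irx3 and Irx5 belong to the Iroquois group of the class and act early in the proximal and anterior limb.

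The homeobox, the coding stretch for the homeodomain, shows how the members group. It has 63 codons (189 bases) in the TALE class, and it is shown for the Pbx gene that was called, for the Pbx gene of like level that was not, and for 1 member of each other group. The sequences were read from GENCODE M21 transcripts (GRCm38), run 5′ to 3′ on the coding strand, and have codons 24 to 26, the place of the loop extension, in capitals.
Pbx3: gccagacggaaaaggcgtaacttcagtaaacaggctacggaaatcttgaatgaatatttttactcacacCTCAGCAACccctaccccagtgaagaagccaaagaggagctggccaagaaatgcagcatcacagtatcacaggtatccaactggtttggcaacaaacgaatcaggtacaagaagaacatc
Pbx2: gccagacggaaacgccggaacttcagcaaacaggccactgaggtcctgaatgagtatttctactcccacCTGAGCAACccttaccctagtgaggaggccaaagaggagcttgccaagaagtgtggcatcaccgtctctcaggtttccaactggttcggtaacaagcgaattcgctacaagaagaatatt
Pknox1: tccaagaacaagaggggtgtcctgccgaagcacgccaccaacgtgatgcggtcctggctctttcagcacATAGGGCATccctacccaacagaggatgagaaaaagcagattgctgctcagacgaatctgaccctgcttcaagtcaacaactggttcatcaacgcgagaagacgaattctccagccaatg
Meis2: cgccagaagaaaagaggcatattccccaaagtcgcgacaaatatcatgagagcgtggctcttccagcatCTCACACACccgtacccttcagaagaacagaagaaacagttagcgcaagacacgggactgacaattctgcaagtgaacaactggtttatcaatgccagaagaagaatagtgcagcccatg
Irx5: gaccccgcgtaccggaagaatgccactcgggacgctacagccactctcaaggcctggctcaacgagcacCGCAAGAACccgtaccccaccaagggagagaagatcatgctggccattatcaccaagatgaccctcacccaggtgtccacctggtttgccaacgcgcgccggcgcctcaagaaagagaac
The homeoboxes of Pbx2 and Pbx3 shared 156 of 189 bases (82.5%), and those of Irx3 and Irx5 shared 166 (87.8%). The 3 Meis genes shared 82.0% to 84.7% with each other and 65.1% to 66.1% with Pknox1. Pbx3 shared 46.6% with Pknox1 and 50.8% with Meis2. None of the 9 members had a near-identical copy in the last 300 bases of its transcripts (at least 200 bases at 95% identity or more).

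Depth differed between the sides. The deposited means repeat on steps that correspond to 1 count in 1 region, and these gave size factors, the relative depth of a region, of 0.329 to 0.832 for the distal and 1.502 to 2.418 for the proximal regions, or about 46991 to 118978 and 214774 to 345649 counts. The labels give the side of each library, and the side of each size factor was inferred from the authors' deposited log2 changes, not read from a label. By that assignment distal regions held 23.3% of the summed size factors, which is the share of a gene's counts expected in distal at an equal level. Whole counts in each region were recovered for 7 members. For Pknox1 this also used the deposited log2 change and standard error, and for the others the mean was enough. For Pbx2 and Pbx3 only the level of each side could be computed. A level is given in normalized counts, meaning counts divided by the size factor, and 3 counts over a side amount to a level of 1.02 in distal and 0.311 in proximal. All 7 limb mesenchyme markers were detected, with means of 3.93 to 159 in the authors' deposited table, where the median over all genes was 3.4. The highest were 159 for Prrx1, 99.2 for Pdgfra, 74.0 for Twist1 and 21.5 for Tbx5.

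Pbx3 was lower in distal, and it was the only 1 of the 9 members that the authors' deposited table puts under an adjusted p of 0.05. Over all genes 0.977% were called in either direction and 0.582% lower in distal. Pbx3 (ENSMUSG00000038718, GRCm38 chromosome 2, 34171457 to 34373142, minus strand) encodes a Pbx cofactor of Hox proteins. Its level was 8.29 in distal and 34.9 in proximal, which corresponds to about 24.3 and 337 counts. In the authors' deposited table its log2 change was -2.08 (standard error, SE, 0.47), at an adjusted p of 0.00212. The proximal level was thus 4.21 times the distal level, and the 95% interval of the log2 change ran from -3.00 to -1.15. Fewer cells with Pbx3 RNA and less Pbx3 RNA per cell cannot be told apart in such pooled areas.

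Pbx3 stood well inside the range of the genes called lower in distal. Of those 81 genes, 31 had a more negative log2 change and 41 a higher mean, and 67 of all genes had a smaller p. The standard error in the authors' deposited table corresponds to a coefficient of variation beyond counting error of about 39.0% for Pbx3, against 20.9% for Pbx2. These are values of the authors' fitted model, since the spread between regions could not be measured without counts per region. The genes most like Pbx3, taken as the 3 nearest in log2 change among 56 called genes with 0.5 to 2 times its mean and judged over the 2 sides only, were Alcam (-2.03), Sfrp2 (-2.01) and Mab21l1 (-1.95) in the authors' deposited table. Alcam is a cell adhesion molecule, Sfrp2 a secreted Wnt modulator and Mab21l1 a nuclear protein of the Mab21 family.

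Muscle markers also stood low in distal, and their part in the Pbx3 result was not tested. Of the 14 muscle markers measured, 13 had a negative log2 change and 6 were called lower in distal (0.582% of all genes were), and their summed level was 17.3 in distal and 156 in proximal. Those called were Actc1 (-3.11), Myh3 (-3.27), Myl1 (-4.57), Acta1 (-3.59) and Tnnt1 (-4.09), which encode parts of the contractile apparatus, and Myog (-4.17), a regulator of muscle differentiation, in the authors' deposited table. Of the 6 with recovered counts, Pax3, Pax7, Myf5, Tnnc1 and Des had 0 distal counts, with 1 distal and 109 proximal counts over the 6. The limb mesenchyme markers called were 2, in the same direction, Pdgfra (-0.86) and Tbx5 (-1.41) in the authors' deposited table, and the list of 7 had a summed level of 318 in distal and 438 in proximal. Twist2, with 0.69 in the authors' deposited table, was the only limb mesenchyme marker with a positive log2 change.

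Pbx2 (ENSMUSG00000034673, chromosome 17, 34591266 to 34597400, plus strand) encodes a broadly expressed Pbx protein and had nearly equal levels, 15.5 in distal and 15.0 in proximal. Its log2 change in the authors' deposited table was 0.05 (SE 0.31), at an adjusted p of 0.997, and the interval ran from -0.57 to 0.66. That interval does not reach the interval of Pbx3, and the difference between these genes was not tested. Its sign changed when the median change of all genes (0.07) was set to 0, where the value was -0.02. Pbx2 shares exon sequence on the same strand with Gpsm3, so reads there could belong to either gene.

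Pbx4 (ENSMUSG00000031860, chromosome 8, 69832491 to 69872292, plus strand), the Pbx gene best known from testis, was near the limit of detection. Its counts from the deepest to the shallowest proximal region were 2, 0, 2, 1 and 1, and all 5 distal regions had 0. At an equal level 1.40 distal counts would be expected, and 0 of 6 counts allow a distal share of up to 45.9% (exact interval). Of the genes with 6 counts in all, 35.6% had 0 in distal, so no difference was detectable at this depth.

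Without regard to length, the mean over all regions was higher for Pbx3 (21.6) than for Pbx2 (15.3). Per kilobase of exon, with lengths from GENCODE M21, the mean level of both sides was highest for Pbx2 (4.20) and Pbx3 (3.54). These came in that order in distal (4.26 and 1.36) and in the reverse order in proximal (4.13 and 5.72). Whether counts in these libraries scale with exon length is not given in the sources used here. If they do not, the order per kilobase partly reflects the lengths. Pknox1 (0.814), Irx5 (0.393), Irx3 (0.201) and Pbx4 (0.142) followed per kilobase. The Meis genes were lowest per kilobase at 0.0291 for Meis3, 0.00768 for Meis2 and 0.00429 for Meis1, and with 1 or 2 counts each they cannot be ordered among themselves. The levels of Irx3 and Pbx4 rest on 11 and 6 counts, and their proximal regions overlapped.

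**Figure D1:**
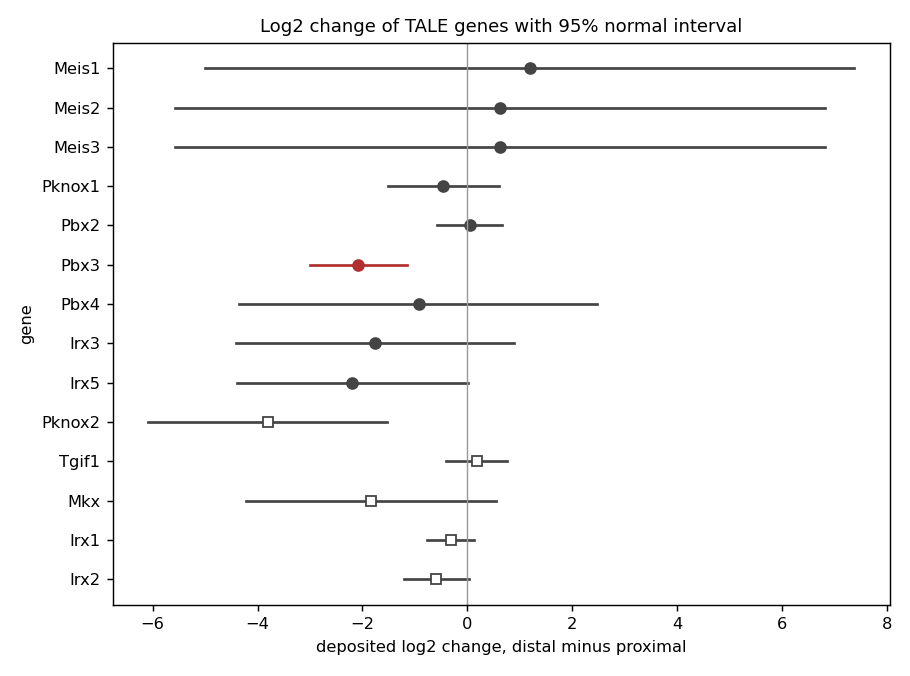
Log2 change of the 9 members (filled circles) and 5 other TALE genes (open squares) on the horizontal axis, as deposited, with lines for the 95% normal interval (1.96 SE). Pbx3, in red, was the gene with an adjusted p under 0.05; the intervals of the 3 Meis genes span more than those of any other gene shown.

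The Meis genes were almost undetected on either side. Meis1 (ENSMUSG00000020160, chromosome 11, 18879817 to 19018985, minus strand) had 1 count in all, in the second deepest proximal region. Meis2 (ENSMUSG00000027210, chromosome 2, 115863064 to 116065839, minus strand) had 2 counts, 1 in each of the proximal regions ranked 1 and 3 in depth. Meis3 (ENSMUSG00000041420, chromosome 7, 16175090 to 16186504, plus strand), a less studied Meis gene, had 2 counts in the same pair of regions. All 5 distal regions had 0 counts of each Meis gene.

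These counts carry no direction. The 3 Meis genes together had 0 distal and 5 proximal counts, where 1.16 distal counts would be expected at an equal level, and the exact interval of the distal share reached 52.2%. Of the genes with 2 counts in all, 63.5% had 0 in distal. The authors' deposited table nevertheless lists positive log2 changes, 1.19 for Meis1 and 0.62 for Meis2 and Meis3, each with an SE of 3.16, although every count lay in proximal. From the recovered counts, the log2 ratio of the side means with 0.5 added was -0.24 for Meis1 and -0.45 for Meis2 and Meis3. With 0.5 added to each side's summed counts before division by the summed size factors, the log2 ratio was 0.14 for Meis1 and -0.60 for the other pair. The 0.14 reflects the added 0.5 and the lower distal depth, since Meis1 had 0 distal counts. Both sides stood under 3 counts, so no fold is given. Meis1 overlaps the antisense gene Gm16140, and whether counting used strand is not given in the sources used here.

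Pknox1 (ENSMUSG00000006705, chromosome 17, 31564734 to 31607693, plus strand), also called Prep1, encodes a Pbx partner that is present in most tissues, and it was the member of the Meis and Pknox groups with clear counts. From the deepest to the shallowest region its counts were 4, 5, 0, 3 and 2 in distal and 17, 16, 15, 4 and 12 in proximal. The levels were 4.81, 7.16, 0, 5.88 and 6.09 in distal and 7.03, 7.24, 7.67, 2.55 and 7.99 in proximal. The sides overlapped, with 1 low region on each. Distal held 14 of 78 counts, 17.9% (exact 95% interval 10.2 to 28.3%), and the interval includes the 23.3% of an equal level. The Pknox1 counts were picked with the deposited log2 change, so this share is not independent of it. The authors' deposited table gave a log2 change of -0.46 (SE 0.54), at an adjusted p of 0.991, with an interval from -1.52 to 0.61. An antisense gene, AC166172.4, overlaps Pknox1, so reads of these genes may not be separated.

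**Figure D2:**
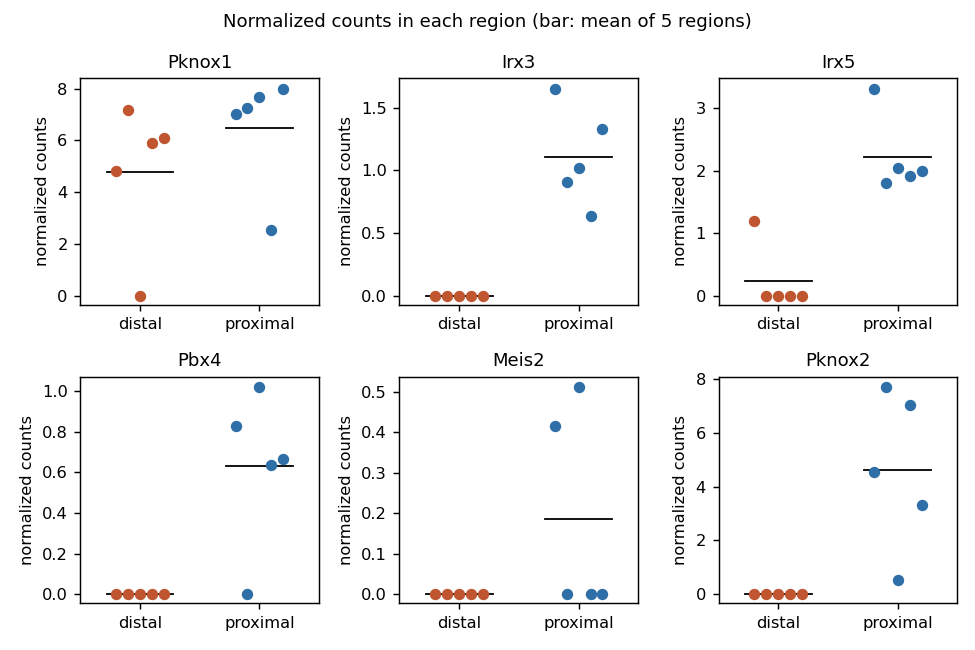
Normalized counts (vertical axis) in each of 5 distal and 5 proximal regions, ordered from deepest to shallowest within a side, with a bar at the mean, for 5 members and Pknox2. Irx3, Irx5 and Pknox2 regions do not overlap between the sides, Pknox1 regions do, and the Meis2 points are 2 single counts.

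Irx5 and Irx3 were found almost only in proximal regions, at low counts. Irx5 (ENSMUSG00000031737, chromosome 8, 92357625 to 92376286, plus strand) had counts of 1, 0, 0, 0 and 0 in distal and 8, 4, 4, 3 and 3 in proximal, from deepest to shallowest. Its proximal levels were 3.31, 1.81, 2.04, 1.91 and 2.00, so 4 of the 5 proximal regions were close to each other. Its single distal count, in the deepest distal region, amounts to a level of 1.20, and the sides did not overlap. Among genes with a mean of 0.5 to 2 and recovered counts, 4.81% had every proximal region above every distal region, and 0.0422% the reverse.

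Distal held 1 of the 23 Irx5 counts, 4.35% (exact 95% interval 0.11 to 21.9%), where 5.35 counts would be expected at an equal level. The ratio of distal to proximal level was 0.15, with a counting interval from 0.00363 to 0.927. Of the genes with 20 to 26 counts in all, 7.64% had at most 1 in distal. The authors' deposited table gave Irx5 a log2 change of -2.19 (SE 1.12), at an unadjusted p of 0.0512 and 0.935 after adjustment, so Irx5 was not called.

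Irx3 (ENSMUSG00000031734, chromosome 8, 91798525 to 91802067, minus strand) had 0 counts in all 5 distal regions and 4, 2, 2, 1 and 2 in the proximal regions. The proximal levels were 1.65, 0.905, 1.02, 0.638 and 1.33, all above the distal zeros. The exact interval of the distal share reached 28.5%, above the 23.3% of an equal level, and 16.2% of genes with 10 to 12 counts in all had 0 in distal. The authors' deposited table gave a log2 change of -1.77 (SE 1.35), at an adjusted p of 0.991. Irx3 overlaps the antisense gene Irx3os, and reads of these genes cannot be told apart unless counting used strand.

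Irx3 and Irx5 lie 556 kb apart on chromosome 8. Summed over both, 1 of 34 counts was distal, 2.94% (exact 95% interval 0.0744 to 15.3%), where 7.91 would be expected at an equal level. The sum was formed after the values of each gene were known, so its interval is a description and not a test. No share over all genes was computed for such a sum, and Irx3 alone had an interval that includes 23.3%. The other Iroquois genes measured, Irx1 and Irx2 on chromosome 13, were more abundant and closer to equal. Irx1 had levels of 29.5 in distal and 36.8 in proximal, and the authors' deposited table lists its log2 change as -0.32 (SE 0.22). Irx2 had levels of 13.3 and 19.9, and a log2 change of -0.59 (SE 0.32) in the authors' deposited table. Neither was called (adjusted p of 0.991 for both).

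**Figure D3:**
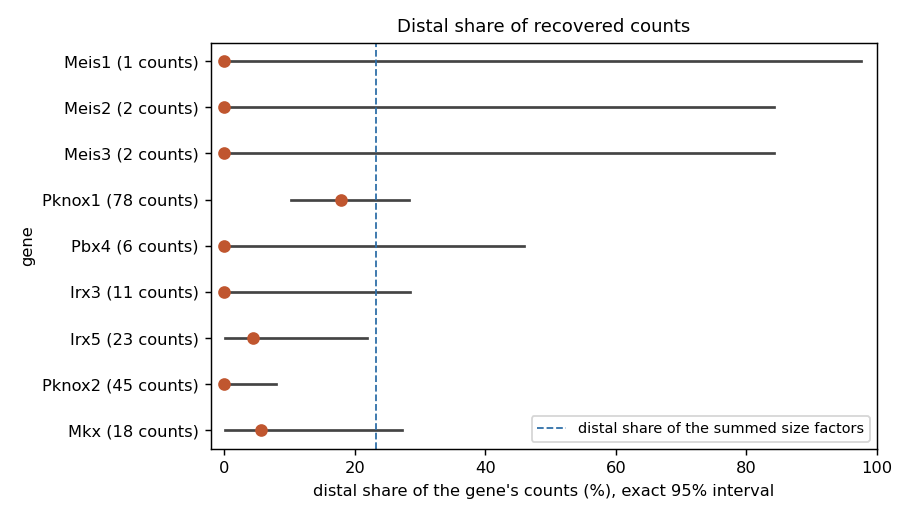
Distal share of the counts of each gene with recovered counts (points, percent) with its exact 95% interval (lines), and the 23.3% of summed size factors held by distal regions (dashed). The intervals of Irx5 and Pknox2 lie under the dashed line, and those of the other 7 genes cross it.

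Over all genes 0.977% were called in either direction, and 845 of 13916 had an unadjusted p under 0.05. The other TALE genes on the list had 5 of 8 measured, and the authors' deposited table called 0 of them in either direction. Of these 5 genes 1, Pknox2, had an unadjusted p under 0.05. Their median log2 change was -0.59, against -0.46 for the 9 members and 0.07 for all genes. With means under 1 left out, the medians were -0.45 for 4 other TALE genes, -1.27 for 4 members and -0.03 for 9604 genes. The order of both TALE sets thus depended on this filter. It leaves out the Meis genes, Pbx4 and Irx3 among the members, and Mkx among the other TALE genes. Tgif1, a TALE repressor that limits TGF-beta and retinoic acid responses, had 0.18 (SE 0.30) in the authors' deposited table.

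Pknox2, the paralog of Pknox1, had counts of 11, 17, 1, 11 and 5 in the proximal regions and 0 in all distal regions. Its proximal levels were 4.55, 7.69, 0.511, 7.02 and 3.33, a wide spread that still did not reach the distal zeros. Distal held 0 of 45 Pknox2 counts, and the exact interval of the distal share reached 7.87%. Of the genes with 40 to 50 computed counts in all, 0.684% had at most 1 computed in distal. The authors' deposited table lists a log2 change of -3.81 (SE 1.16), at an adjusted p of 0.0912, so Pknox2 missed the threshold. Mkx, a tendon regulator, had 1 distal count and 2, 5, 6, 3 and 1 proximal counts, and was not called (adjusted p of 0.991).

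**Figure D4:**
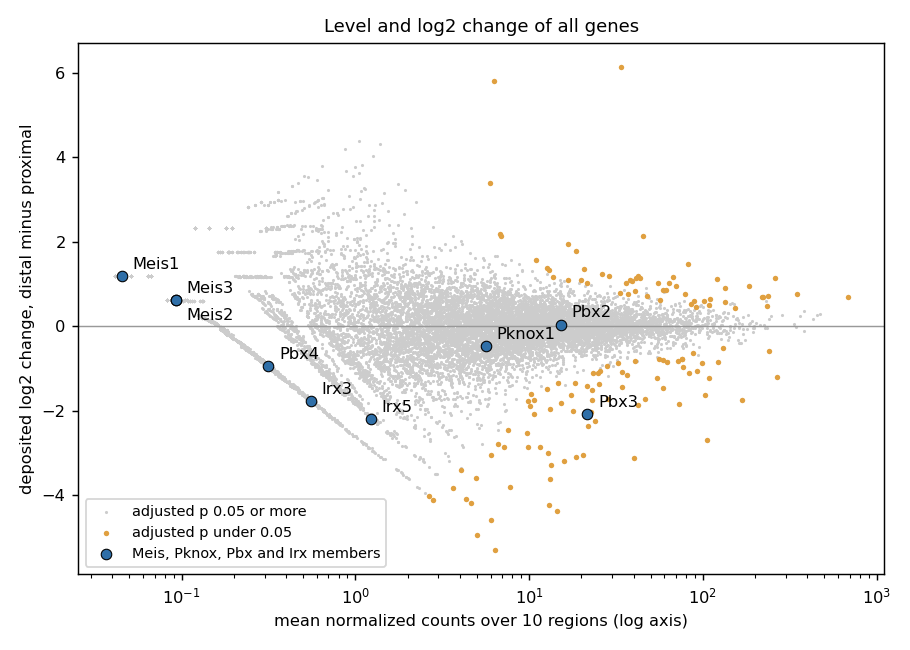
Log2 change (vertical axis, as deposited) against the mean of normalized counts (horizontal log axis) for all 13916 genes, with genes of adjusted p under 0.05 in orange and the 9 members in blue. Pbx3 lies among the orange points at a mean of 21.6, whereas the Meis genes lie at the left edge on rows of genes with 1 or 2 counts.

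The known partners and regulators of these genes are given by lists. For comparison, 845 of all 13916 genes had an unadjusted p under 0.05, and 0.977% were called in either direction. Of the 7 measured genes for proteins that bind Pbx or Meis, such as Crebbp, a coactivator, and Ncor1, a corepressor, 0 were called, and 0 had an unadjusted p under 0.05. Their median log2 change was -0.11. Hand2, which acts in the posterior limb, had -0.57 (SE 0.32) in the authors' deposited table. Of 9 measured posterior Hox genes, whose proteins bind DNA with Meis or Pbx proteins, 2 were called higher in distal (0.395% of all genes were), Hoxd13 (1.16) and Hoxd12 (1.10) in the authors' deposited table, and 0 lower. Another 3 had an unadjusted p under 0.05, Hoxa13 at 0.56 (adjusted p of 0.255) and, with the opposite sign, Hoxa10 at -0.83 (adjusted p of 0.0609) and Hoxa11 at -2.34 (adjusted p of 0.144), by the authors' deposited table. Over the 9 genes the median was 0.46.

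The retinoic acid list holds the pathway that favours Meis genes in the proximal limb. It had 1 of 16 measured genes called, which was higher in distal (0.395% of all genes were). For Rarg, a retinoic acid receptor with a mean of 16.8, the authors' deposited table lists a log2 change of 1.96 (SE 0.33), at an adjusted p of 1.89e-06. The list held 3 genes with an unadjusted p under 0.05, Rarg, Aldh1a2 and Crabp1, a retinoic acid binding protein that the authors' deposited table lists at -2.54 (adjusted p of 0.507). Aldh1a2, which makes retinoic acid, had 1.08 (adjusted p of 0.75), Cyp26b1, which breaks it down, had 0.50 (adjusted p of 0.991) and Rdh10, which makes its precursor, had -0.26 (adjusted p of 0.991), all from the authors' deposited table. For the whole list the median was 0.20.

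FGF feedback genes respond to the signal that restricts Meis genes. Of the 11 measured, 0 were called (0.977% of all genes were), and the median log2 change was 0.32. An unadjusted p under 0.05 was found for 1, Spry4 (845 of 13916 over all genes). Spry4, an FGF inhibitor, had 1.33 (SE 0.55; adjusted p of 0.531) by the authors' deposited table. Of 13 regulators of the more proximal limb segments, 0 were called higher and 2 lower in distal (0.395% and 0.582% of all genes were). The 2 were Tbx5 (-1.41), a forelimb regulator, and Osr2 (-2.85), a regulator of joints and connective tissue, in the authors' deposited table. Tbx5 is also on the limb mesenchyme list, so its call there is the same one. Of these 13 genes 4 had an unadjusted p under 0.05, Tbx5, Osr2 and another pair with opposite signs in the authors' deposited table, Shox2, needed for the upper limb bone, at -3.49 (SE 1.08; adjusted p of 0.107) and Osr1, a zinc finger gene related to Osr2, at 1.15 (SE 0.44; adjusted p of 0.383). The median of the 13 was -0.16, and that of the 8 with a mean of at least 1 was -0.95. Markers of blood and endothelium (5 measured), surface ectoderm (4) and Schwann or neural cells (7) had 0 called, and their largest means in the authors' deposited table were 0.639, 0.569 and 2.66. Their summed levels in distal and proximal were 2.75 and 1.56, 0.992 and 0.619, and 4.91 and 5.82, and their part in the results was not tested.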

How the data were processed

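The members and gene lists were chosen with earlier results of these data known. Per the file headers, the authors deposited a DESeq2 results table with 1 line per protein-coding gene. The authors deposited the mean as a signal in normalized counts over 10 regions, the log2 change with its standard error, the statistic as a score, and the p-value with its adjusted p. The submitters' processing notes name mm10 and GRCm38; the aligner and counting are not given in the sources used here. A call is a deposited adjusted p under 0.05, and with no values per region deposited, no count model was fitted across genes.

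Size factors were read from means shared by at least 20 genes, and each region's side from the direction in which the authors' log2 change moved between 1 and 2 counts. Whole counts are the sets that give the mean within 3e-09. Of 5031 genes with a mean up to 1.5, 4999 had a single set. For Pknox1, of 2221 sets searched, with side levels near those computed, 1 also returned the deposited log2 change within 1e-05 when the negative binomial fit was repeated at the deposited standard error. Of 136 genes with means of 2.3 to 2.45, 129 had 1 such set. Pknox1 has a higher mean (5.64), where this check was not run. The side levels of Pbx2, Pbx3, Irx1, Irx2 and Tgif1 were computed from mean and log2 change. Such levels were set against recovered counts in 115 genes with means of 2.3 to 2.45 and more than 3 distal counts. They differed by a median of 5.93% in distal and 4.64% in proximal. Those counts had been picked with the same log2 change, and the 5 computed genes have higher means. The error for these 5 genes is therefore not known. Exact (Clopper-Pearson) 95% intervals cover counting error only. The recovery was tested on simulated data. Python 3.11.15, SciPy 1.17.1, statsmodels 0.14.6 and BLAST 2.17.0 were used.

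Named were all members, the other measured TALE genes of the list, and, of each other list, genes called and up to 4 of the highest means; Hand2, Hoxa10, Hoxa11, Hoxa13, Cyp26b1, Aldh1a2, Crabp1, Spry4, Shox2, Osr1, Twist2 and the muscle markers at 0 were named after their values were seen. The log2 ratio of summed counts was an alternative added after seeing the data.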

Additional observations from a re-analysis of the deposited data

Results flagged for a closer look

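Among the members with more than 3 recovered counts on a side, 2 sets of 5 regions held a region far from the other 4. The limit used is passed by about 1 in 20 sets of normal values. Low counts are not normal, and the Irx5 set rests on counts of 8, 4, 4, 3 and 3. The 2 sets therefore cannot be judged against that rate. In Pknox1, the fourth deepest proximal region had a level of 2.55 against 7.03 to 7.99 in the others, a gap of 0.824 of the whole range (limit 0.71). In Irx5, the deepest proximal region had 3.31 against 1.81 to 2.04, a gap of 0.843 of the range.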

How the results depend on the processing

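The number of members called was 1, Pbx3, under each of the 7 alternatives run (other thresholds, other sets of genes for the adjustment, centring, and a log2 change of at least 1). All 7 reuse the deposited values, with an adjusted p of 0.00212 for Pbx3 and 0.935 for Irx5, the next lowest member. They could hardly change the number, and they do not test the Pbx3 counts, the depth or the library. Centring on the median of all genes gave Pbx2 -0.02. Log2 ratios of the side means with a pseudocount of 0.5 were -0.24 for Meis1 and -0.45 for Meis2 and Meis3; with 0.1 they were -0.93 and -1.51, and -2.87 for Pbx4 and -3.60 for Irx3. Ratios of summed counts, with 0.5 added to each side's sum, were added after seeing the data. They were -0.60 for Meis2 and Meis3 and 0.14 for Meis1. The 0.14 has the deposited sign although the only Meis1 count lay in proximal, so it carries no direction. Why the deposited signs were positive was not tested. Leaving out each region in turn, with a pseudocount of 0.5, gave -0.29 to 0.0 for Meis1, -0.55 to -0.27 for Meis2 and Meis3, -1.37 to -1.05 for Pbx4, -1.79 to -1.56 for Irx3, -2.44 to -1.72 for Irx5 and -0.59 to -0.11 for Pknox1. The distal share then ran from 0.0 to 6.67% for Irx5, whose only distal count lay in the deepest distal region, and from 12.3 to 23.0% for Pknox1. For Pbx2 and Pbx3 no region could be left out, since their counts per region were not recovered. No paired analysis was possible because each group is 1 library and the sources used here pair no regions. Depth limits the distal side most.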
